A study of Homo sapiens with 6 samples.

Results

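The BCL2 family of apoptosis genes was examined in K562 cells through 10 listed members: BCL2, BCL2L1, MCL1, BCL2L11, BAX, BAK1, BAD, BBC3, PMAIP1 and BCL2L12. Members were chosen by name, and each was sought among the counted transcripts through its GENCODE symbol. For 7 of the 10 members a counted transcript was matched, out of 37192 genes matched in all. The other 3, BCL2L11, BAK1 and BCL2L12, were not analysed here. K562 is an established human chronic myelogenous leukemia line with erythroid features, and the cells carried no treatment. The data are 4 RNA-seq libraries of total RNA depleted of rRNA and 2 PRO-seq libraries, all from cells grown in 1 flask. Each p-value below therefore measures the spread between libraries of 1 culture, which may be technical.

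PRO-seq sequences nascent RNA and so maps engaged RNA polymerases along each transcription unit (TU), whereas RNA-seq measures the RNA that has accumulated. Both are given here in TPM, a level that divides counts by TU length and scales them to the same total in every library. The ratio between the assays is known only up to a constant. A TPM higher or lower in RNA-seq than in PRO-seq therefore has no direction by itself. The ratio of RNA-seq TPM to PRO-seq TPM is called relative half-life, has no unit, and was set against the median mRNA on the log2 scale, so that 0 is the median of the 8733 mRNAs past both thresholds (PRO-seq over 10 TPM, RNA-seq over 1 TPM). TUs were classed by their gene, so mRNA here means any counted transcript of a protein-coding gene. The class thus also holds transcripts without a coding region. The ratio reads as stability where RNA is at steady state and polymerase occupancy tracks the rate of synthesis, which was not tested here. The authors found half-life estimates from these libraries more variable than those from earlier published K562 data. They based their main analyses on the earlier data. In these bulk samples, fewer cells that transcribe a gene and less RNA per cell cannot be told apart.

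The BCL2 family controls whether the outer membrane of mitochondria is opened during apoptosis. Pro-survival members (BCL2, BCL-XL encoded by BCL2L1, and MCL1) hold the pore-forming effectors BAX and BAK1 in check. BH3-only proteins, among them BAD, PUMA encoded by BBC3 and NOXA encoded by PMAIP1, bind the pro-survival proteins, NOXA chiefly MCL1 and BAD chiefly BCL2 and BCL-XL. BAX, BBC3 and PMAIP1 are known targets of the transcription factor p53, which K562 cells lack in functional form. MCL1 is known for a protein that turns over rapidly and for its role in the survival of blood cells.

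Of the 7 mRNAs, 4 held AU-rich pentamers in the 3′ UTR and 3 did not. Several RNA-binding proteins are known to act on mRNA decay through such elements. The pentamer ATTTA was searched on the transcript strand, with overlapping matches counted, in the GENCODE transcript sequences on GRCh37. It occurred 10 times in the 3′ UTR of MCL1, 13 times in that of BCL2, 5 times in that of PMAIP1 and 3 times in that of BCL2L1. None was found in the 3′ UTRs of BAX, BAD or BBC3, which are the shortest of the 7, with 877 bases or fewer. Of 8142 mRNA 3′ UTRs searched, 71.3% held the pentamer, so 4 of 7 members is not above that background. Windows of 30 bases show its arrangement in each of the 4 mRNAs that have it, with every ATTTA in capitals, 5′ to 3′. They are centred on the nonamer TTATTTATT in BCL2 and PMAIP1, and on the densest run of pentamers, or the first of equal ones, in BCL2L1 and MCL1:
BCL2: gaaaaaaagATTTATTTATTTAagacagtc
BCL2L1: ctagttttctagaATTTAtcacacttctgt
MCL1: gacctaATTTAactggtgaaATTTAaagtg
PMAIP1: caggaataattttATTTAttttgcctattt
The windows start at base 243 of the 3′ UTR for BCL2, base 152 for BCL2L1, base 1129 for MCL1 and base 1207 for PMAIP1. In the BCL2 window 3 pentamers overlap end to end, whereas the 2 of the MCL1 window stand apart. The nonamer, which contains the pentamer, occurred 1 time each in BCL2 and PMAIP1 and in none of the other 5.

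Among the pro-survival members, MCL1 had the highest PRO-seq level and the highest RNA-seq level of the family, and a relative half-life well under the median mRNA. The counted MCL1 mRNA (ENST00000620947) lies at chr1:150547027-150552214 on the minus strand of GRCh37, with 4 exons and 3 introns. Its PRO-seq level was 1631 and 1592 TPM in replicates 1 and 2, from 1766 and 1757 counts. The RNA-seq level was 294, 298, 299 and 305 TPM in replicates 1 to 4, from 2835 to 4439 counts. Neither assay showed a library apart, and all RNA-seq values lay below both PRO-seq values. MCL1 thus stood at the 99.9th percentile of 14965 mRNAs in PRO-seq and at the 96.5th in RNA-seq. Relative half-life was 3.47-fold below the median mRNA, at the 13.1th percentile, and pairing each RNA-seq with each PRO-seq library gave 8 values from -1.84 to -1.74 on the log2 scale. By edgeR's quasi-likelihood test the log2 relative half-life was -1.79 ± 0.04 (SE), with an adjusted p of 9.09e-28. Computed without TU length it was 1.20, so the direction for MCL1 rests on the correction for length (3626 exon bases in RNA-seq, 4188 bp left of the span in PRO-seq). The same setting moved PMAIP1 from 0.60 to 2.997, BCL2L1 from -0.45 to -1.73 and BAD from 0.95 to 0.26, without changing their calls.

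BCL2L1 was the next most abundant member in both assays and lay closer to the median mRNA. Its counted mRNA spans chr20:30252261-30310671 on the minus strand, with 3 exons. PRO-seq gave 299 and 309 TPM, and RNA-seq gave 143, 146, 146 and 137 TPM. The values of each assay lay close together and did not overlap between assays. The log2 relative half-life was -0.45 ± 0.04 (SE), at the 39.0th percentile (edgeR, adjusted p = 4.10e-12). When every TU with 1 count in each assay was tested, the reference fell with the weakly transcribed TUs and BCL2L1 moved to 0.18 (edgeR, adjusted p = 1.11e-04). The median log2 ratio of RNA-seq to PRO-seq TPM was -0.64 over the 8733 mRNAs past the thresholds and -1.27 over the 14965 with a count in both assays. The sign for BCL2L1 is therefore set by which mRNAs serve as the reference.

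BCL2, the founding member, was scarcely transcribed in these cells and did not reach either threshold. The counted mRNA (ENST00000398117) covers chr18:60790579-60987361 on the minus strand, the longest span of the 7. PRO-seq gave 1.60 and 2.02 TPM from 81 and 104 counts, and RNA-seq gave 0.758, 0.588, 0.718 and 0.492 TPM from 22, 18, 14 and 11 counts. BCL2 was thus at the 24.7th percentile of mRNAs in PRO-seq and at the 29.4th in RNA-seq. Against the reference used for the other members, its log2 relative half-life from summed counts was -0.86, and the 8 values from single libraries lay between -1.40 and -0.44, all below the median mRNA. In the fit without thresholds, whose reference is the lower one described for BCL2L1, it was -0.23 ± 0.23 (SE), not past the test (edgeR, adjusted p = 0.383), where 69.1% of 20624 TUs were called in either direction. When TUs needed 10 or more summed counts per assay, it was -0.75 (edgeR, adjusted p = 0.00189). The RNA-seq counts are few, and each estimate was negative, but whether the test was passed differed between these choices.

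**Figure D1:**
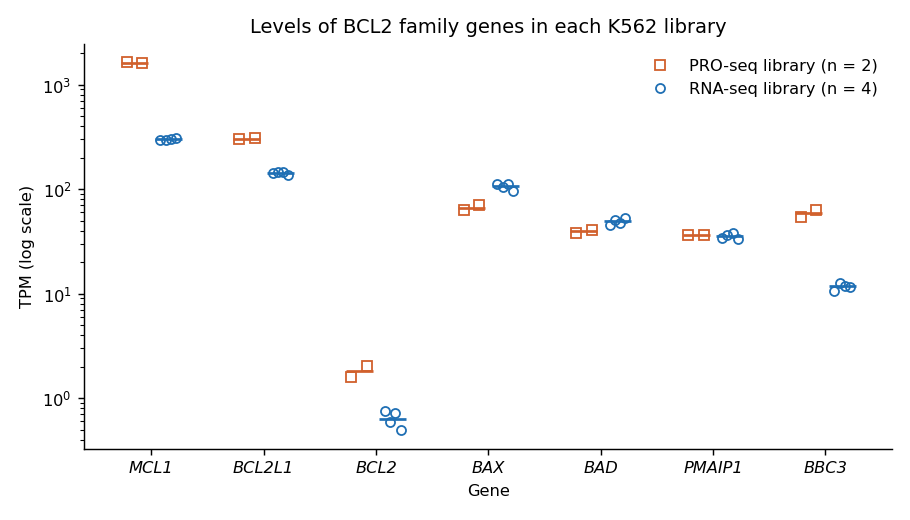
TPM on a log axis for the 7 BCL2 family mRNAs in each library: squares are the 2 PRO-seq libraries, circles the 4 RNA-seq libraries, and lines the mean of an assay. MCL1 lies at 1592 to 1631 TPM in PRO-seq and 294 to 305 TPM in RNA-seq, BAX is higher in RNA-seq than in PRO-seq, and BCL2 lies under 2.1 TPM in every library.

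BAX, the effector with a matched transcript, ran the other way, with a relative half-life above the median mRNA. It lies at chr19:49458132-49465055 on the plus strand, with 6 exons. PRO-seq gave 63.3 and 69.8 TPM from 97 and 109 counts. RNA-seq gave 113, 104, 112 and 95.7 TPM from 349, 340, 232 and 228 counts. Every RNA-seq value was above both PRO-seq values. Relative half-life was 2.48-fold above the median mRNA, at the 79.1th percentile, with a log2 value of 1.31 ± 0.11 (SE; edgeR, adjusted p = 1.77e-12).

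Of the 3 BH3-only members, BAD and PMAIP1 lay above the median mRNA and BBC3 below it. BAD, at chr11:64037302-64052137 on the minus strand, gave 38.0 and 40.9 TPM in PRO-seq and 45.7, 50.4, 47.8 and 52.4 TPM in RNA-seq. Its log2 relative half-life was 0.95 ± 0.11 (SE; edgeR, adjusted p = 1.36e-09). The span of BAD is shared over 14604 bp with GPR137 on the opposite strand, and 276 bp of their exons overlap.

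PMAIP1, encoding NOXA, lies at chr18:57567228-57571537 on the plus strand. PRO-seq gave 36.2 and 36.7 TPM and RNA-seq 34.1, 36.1, 38.3 and 33.6 TPM, so that the 2 assays overlapped in TPM. Since the median mRNA has less RNA-seq than PRO-seq TPM, this placed PMAIP1 above it, with a log2 relative half-life of 0.60 ± 0.18 (SE; edgeR, adjusted p = 0.00239). The PRO-seq values rest on 31 and 32 counts over 3310 bp, the smallest PRO-seq counts of the family.

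BBC3, encoding PUMA, was the only BH3-only member below the median mRNA. It lies at chr19:47724081-47736023 on the minus strand. PRO-seq gave 53.7 and 63.8 TPM from 152 and 184 counts, and RNA-seq gave 10.7, 12.7, 11.9 and 11.6 TPM from 56, 70, 42 and 47 counts. All RNA-seq values lay far under the PRO-seq values. The log2 relative half-life was -1.69 ± 0.13 (SE; edgeR, adjusted p = 3.72e-13), at the 14.6th percentile, near that of MCL1. The counted BBC3 transcript holds 114 of the 579 coding bases of the canonical one and 59.3% of its exon bases, so reads from the remaining exon bases were not counted for BBC3.

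**Figure D2:**
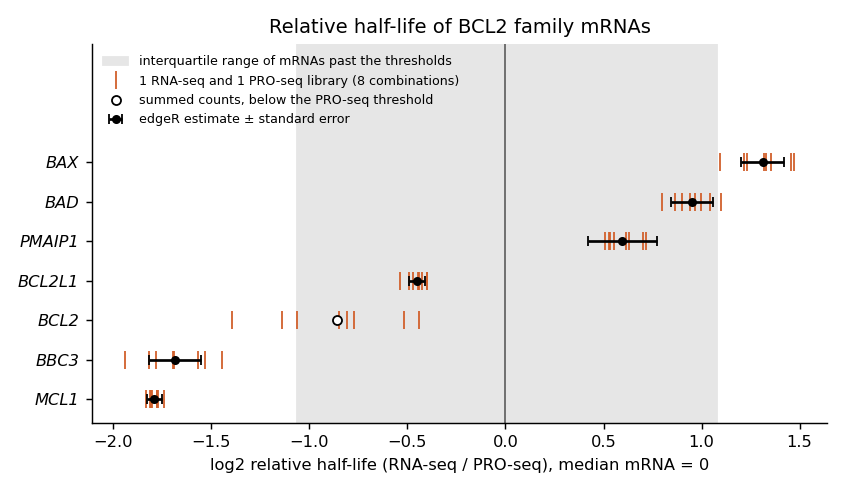
Relative half-life on the log2 scale, with the median mRNA at 0. Filled points with bars are edgeR estimates with standard errors, ticks are the 8 combinations of single libraries, the open point is BCL2 from summed counts, and the shaded band is the interquartile range of the mRNAs past the thresholds. MCL1 at -1.79 and BBC3 at -1.69 lie below the band and BAX at 1.31 above it.

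In the test against the median mRNA, 3 of the 6 members past both thresholds were above it (BAX, BAD and PMAIP1) and 3 below it (MCL1, BCL2L1 and BBC3). Over all 9925 TUs tested, noncoding classes included, 40.4% were called above and 50.0% below, so the members' split is near the background. With a difference over 2-fold tested, 1 member was above (BAX) and 2 were below (MCL1 and BBC3), where 21.5% and 29.2% of all TUs were called. Without TU length 4 members (MCL1 added) were above and 2 below, where 43.1% and 48.4% of all TUs were called. Without thresholds 4 of 7 (BCL2L1 added) were above and 2 below, where 31.7% and 37.4% were called. The 6 members tested had a median log2 relative half-life of 0.07, near the 0 that the mRNAs tested have by construction. All TUs tested, with the noncoding classes, had -0.22. With BCL2 included, which is under the thresholds, the median of the 7 from summed counts was -0.45. No member changed its call when any 1 library was left out, and each kept its sign in 8 of 8 combinations of libraries.

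RNA-seq replicates 1 and 3 were close to each other, as were replicates 2 and 4. Among TUs holding 20 or more counts in a pair, the chi-square statistic per degree of freedom was 1.12 within each of these pairs and between 1.74 and 2.11 in the other RNA-seq pairs. Each pair still differed by more than sampling noise. With each close pair summed to 1 sample, the same 3 members were above and the same 3 below the median mRNA. MCL1 was then at -1.80 (edgeR, adjusted p = 1.59e-19), BAX at 1.31 (edgeR, adjusted p = 3.53e-10) and PMAIP1 at 0.59 (edgeR, adjusted p = 0.00356).

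**Figure D3:**
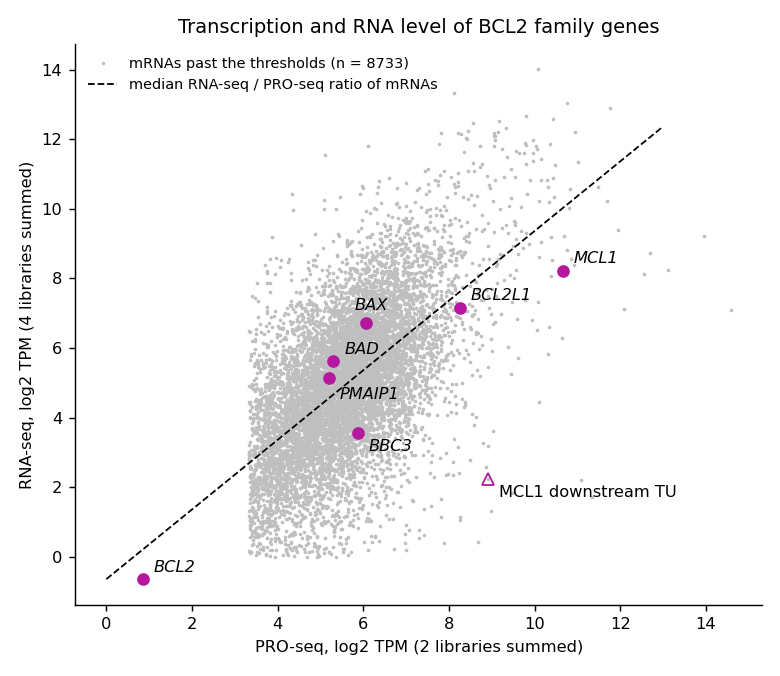
RNA-seq against PRO-seq, both as log2 TPM of summed counts, for the 8733 mRNAs past the thresholds (grey) and the BCL2 family (purple), with the median ratio of mRNAs as a dashed line. BAX, BAD and PMAIP1 lie above the line, MCL1, BCL2L1 and BBC3 below it, and the triangle is the noncoding TU downstream of MCL1 with 483 TPM of nascent signal and 4.75 TPM of RNA.

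A second counted TU carries the MCL1 symbol. This transcript without a coding region (ENST00000617352) covers chr1:150533371-150547028 on the minus strand and begins where the MCL1 mRNA ends, with 2 bp shared. PRO-seq counted 1536 and 1655 reads on it, or 469 and 496 TPM, whereas RNA-seq counted 16, 34, 8 and 9 reads, or 3.97, 8.0, 2.96 and 2.90 TPM. Nascent signal was thus at the 99.2th percentile of mRNAs, while RNA-seq replicate 2 was the highest of 4 low libraries. Its log2 ratio against the median mRNA was -6.03 ± 0.12 (SE; edgeR, adjusted p = 7.29e-29), at the 0.143th percentile of mRNAs past the thresholds. PRO-seq signal of MCL1 that continues past its end cannot be told apart from signal of this TU. The ratio is therefore not read here as stability. This TU is not counted among the members elsewhere. By its gene it is classed as mRNA, so it is among the mRNAs that serve as reference.

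The order of the members differed between the assays. In RNA-seq it ran MCL1, BCL2L1, BAX, BAD, PMAIP1, BBC3 and BCL2, and no neighbours overlapped in their ranges over 4 libraries. MCL1 exceeded BCL2L1 by 2.05- to 2.23-fold within libraries, and BCL2L1 exceeded BAX by 1.27- to 1.43-fold. In PRO-seq the order was MCL1, BCL2L1, BAX, BBC3, BAD, PMAIP1 and BCL2, where BAX and BBC3 overlapped in range, although BAX was the higher in both libraries, by 1.09- and 1.18-fold. BAD exceeded PMAIP1 in both libraries as well, by 1.05- and 1.11-fold, without overlap in range. BBC3 therefore stood above BAD and PMAIP1 in nascent transcription and below both in RNA, in every library of each assay. MCL1 exceeded BCL2L1 by 5.16- to 5.45-fold in PRO-seq.

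As a share of the summed TPM of the 7 mRNAs, MCL1 made up 75.3% and 76.8% of the nascent signal and between 45.6% and 48.0% of the RNA. BAX made up 3.30% or less of the nascent signal and between 15.05% and 17.6% of the RNA. The 3 pro-survival members together held 90.01% and 90.99% in PRO-seq and between 68.0% and 69.6% in RNA-seq. The ranges of the 2 assays did not overlap for these 3 shares. BBC3 fell between 2.53% and 3.02% in PRO-seq and between 1.67% and 1.95% in RNA-seq. TPM corrects for length, so the share of MCL1 in PRO-seq carries the same dependence on its short span. All these shares are of the 7 mRNAs only and would change with other genes added. BAK1, BCL2L11 and BCL2L12 are absent from them. So are other BCL2 family genes, such as BID with 220 TPM in RNA-seq and 54.0 TPM in PRO-seq.

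**Figure D4:**
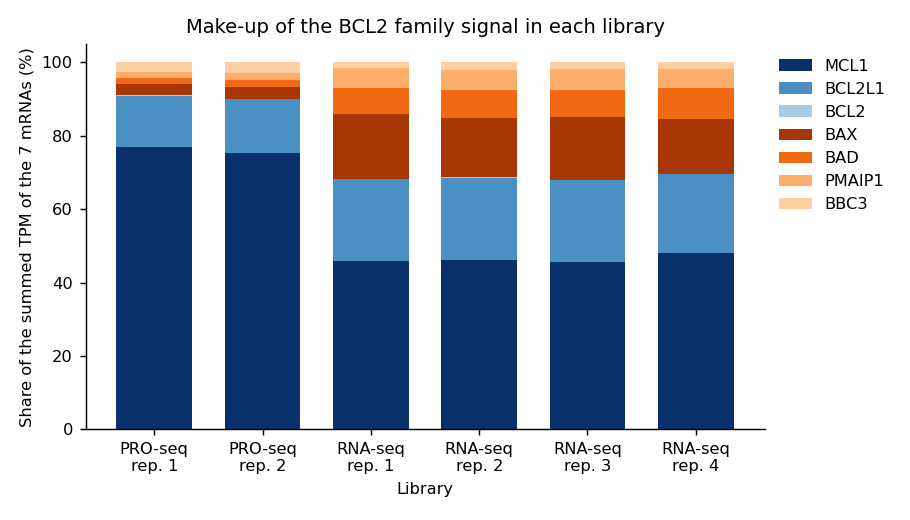
Stacked bars give the percent of the summed TPM of the 7 BCL2 family mRNAs held by each gene, for 2 PRO-seq and 4 RNA-seq libraries, with pro-survival genes in blue and the others in orange. MCL1 holds 75.3% and 76.8% in PRO-seq and between 45.6% and 48.0% in RNA-seq.

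Members of like role were compared by the difference of their log2 TPM within each library, RNA-seq against PRO-seq. Of 5 pairs set out, 3 had both genes matched. MCL1 exceeded BCL2L1 by 1.03 to 1.16 on the log2 scale in RNA-seq and by 2.37 to 2.45 in PRO-seq, so that its relative half-life was 2.53-fold lower. MCL1 against BCL2 gave 8.60 to 9.28 in RNA-seq and 9.63 to 9.99 in PRO-seq, a difference of -0.92. PMAIP1 exceeded BBC3 by 1.51 to 1.68 in RNA-seq and differed from it by -0.80 to -0.57 in PRO-seq, with 4.86-fold higher relative half-life. The values of the 2 assays did not overlap in any of the 3 pairs. Each exact two-sided permutation test over 4 and 2 libraries, which doubles the smaller one-sided p, gave p = 0.133 (Benjamini-Hochberg 0.133 over 3 pairs). That is the smallest p a test of this form allows here, so no pair can reach 0.05.

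The counted transcripts differed in structure. MCL1 and PMAIP1 had the shortest spans, at the 8.71th and 6.59th percentile of mRNAs past the thresholds, and BCL2 was at the 95.4th. The 3′ UTR was 2824 bases long in MCL1, 5279 in BCL2, 1552 in PMAIP1 and 1491 in BCL2L1, against a median of 1241 over mRNAs. It was shorter than that median in BBC3 with 877 bases, BAD with 379 and BAX with 162. ATTTA density was 3.54 per kb in MCL1, 3.22 in PMAIP1, 2.46 in BCL2 and 2.01 in BCL2L1. It was 0 in BAX, BAD and BBC3, and the median mRNA had 1.59. Whether the family is enriched for the pentamer was not tested. The pentamer occurred in 71.3% of 8142 mRNA 3′ UTRs and the nonamer in 8.71%. Across those mRNAs the median log2 relative half-life was -0.10 with the pentamer and 0.30 without it, and -0.59 with the nonamer and 0.07 without it. Of the 4 members with the pentamer, MCL1 at -1.79, BCL2 at -0.86 from summed counts and BCL2L1 at -0.45 lay below the median mRNA, and PMAIP1 at 0.60 lay above it. Of the 3 without it, BAX at 1.31 and BAD at 0.95 lay above and BBC3 at -1.69 below. A match in these sequences is not a shown binding site.

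Some limits come from the annotation. The counted MCL1 transcript holds 591 of the 1050 coding bases and 88.4% of the exon bases of the canonical one. BCL2L1 shares 945 bp of exon with the antisense gene ABALON, which held 38 RNA-seq counts against 5010 for BCL2L1. Whether strand was used in counting was read from the counts, since no source used here states it. TUs lying wholly inside a TU of the opposite strand still held PRO-seq counts in 2529 of 3689 cases, and TUs whose exons lie wholly inside opposite-strand exons held RNA-seq counts in 98 of 163, which counting without strand would have left ambiguous. Most such counts were low, with a median of 2 in PRO-seq and 1 in RNA-seq, and at most 5497 and 3896. The overlaps were judged on GRCh37 annotation rather than on the intervals counted, so the use of strand remains an inference. BAX, BBC3, BCL2 and PMAIP1 overlap no other counted transcript that was matched. BCL2 and PMAIP1 lie 3.22 Mb apart on chromosome 18, and BAX and BBC3 lie 1.72 Mb apart on chromosome 19.

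Around the members, 65 genes of the apoptosis pathway were listed in 5 groups, of which 59 were matched and 38 passed both thresholds. In edgeR's test 22 of the 38 were above the median mRNA, 13 below and 3 not called. Of all TUs tested, 40.4% were above and 50.0% below. Those TUs include noncoding classes, whereas the 38 genes are mRNAs, and the shares among mRNAs alone are not given here. Without thresholds 51 genes of these groups were tested, with 30 above and 9 below, where 31.7% and 37.4% of the 20624 TUs were called. Of the 14 genes tested between cytochrome c and the caspases 11 were called above, whereas none of the 8 tested in the death receptor group was. The background for each group below is the same 40.4% above and 50.0% below. The groups are small, were listed with earlier results known, and differences between them were not tested.

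Of 16 genes listed as other BCL2 family genes, 6 were tested, 5 above and 1 below, with a median of 1.94 on the log2 scale. BNIP3L, a mitophagy receptor, lay at 3.42 ± 0.08 (SE), BID, the BH3-only protein that links death receptors to mitochondria, at 2.66 ± 0.06, and BNIP3 at 2.30 ± 0.10. BNIP1 at 1.59 and BCL2L13 at 0.16 were also above. MOAP1, a BAX-binding protein rather than a BCL2 family member, was below at -1.81 ± 0.18. The adjusted p of these 6 genes was at most 0.00625 by edgeR. BCL2L2, another pro-survival gene, held 82 PRO-seq counts and 0 RNA-seq counts, and 45.8% of its counted exon bases are shared with the readthrough gene BCL2L2-PABPN1, where reads can be ambiguous between the genes. Its remaining exon bases are not shared and held no RNA-seq count either. BIK, BCL2L14 and BCL2L10 of this group also held 0 RNA-seq counts, with 0% of their exon bases shared. Why BCL2L2 held none was not tested.

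Of 16 genes from cytochrome c to the caspases, 14 were tested, 11 above and 3 below, with a median of 0.98. The mitochondrial channels VDAC3 and VDAC1 lay at 3.94 ± 0.06 (SE) and 2.60 ± 0.04, and the caspase substrate PARP1 at 1.97 ± 0.04. Below were CASP2 at -1.24 ± 0.07, DFFA, the inhibitor of the apoptotic nuclease, at -0.61 ± 0.05, and the initiator caspase CASP9 at -0.35 ± 0.06. The adjusted p of CASP9 was 9.21e-06 by edgeR.

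Of 10 caspase inhibitors and their antagonists, 4 were tested and all 4 were above, between 1.12 and 1.39, with a median of 1.22. These were BIRC2, BIRC6 and BIRC5, of the inhibitor of apoptosis family, and HTRA2, a mitochondrial protease that counters them. DIABLO, another antagonist, held no count in either assay, and all of its counted exon bases lie within other counted transcripts.

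The death receptor group held receptors and proteins that act with them. Of its 14 genes, 8 were tested: 0 above, 5 below and 3 not called, with a median of -0.39. The lowest was CFLAR, encoding the caspase-8 inhibitor FLIP, at -2.05 ± 0.06 (SE; edgeR, adjusted p = 8.45e-25). The receptors TNFRSF1A, TNFRSF10B and TNFRSF10A lay at -1.06, -0.60 and -0.29, and the adaptor FADD at -0.49. CASP10 at -0.15, RIPK1 at -0.01 and TRADD at 0.20 did not pass the test.

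Of 9 regulators of MCL1 protein turnover, 6 were tested, 2 above and 4 below, with a median of -0.59. The kinases GSK3A and GSK3B lay at -1.07 ± 0.11 (SE) and -0.999 ± 0.06, and the ubiquitin ligases HUWE1 and MARCHF5 at -0.63 ± 0.04 and -0.54 ± 0.10. Above were the deubiquitinase USP9X at 0.65 ± 0.05 and the ligase subunit FBXW7 at 0.25 ± 0.06. MCL1 mRNA itself lay further below the median than each of these 6, at -1.79.

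**Figure D5:**
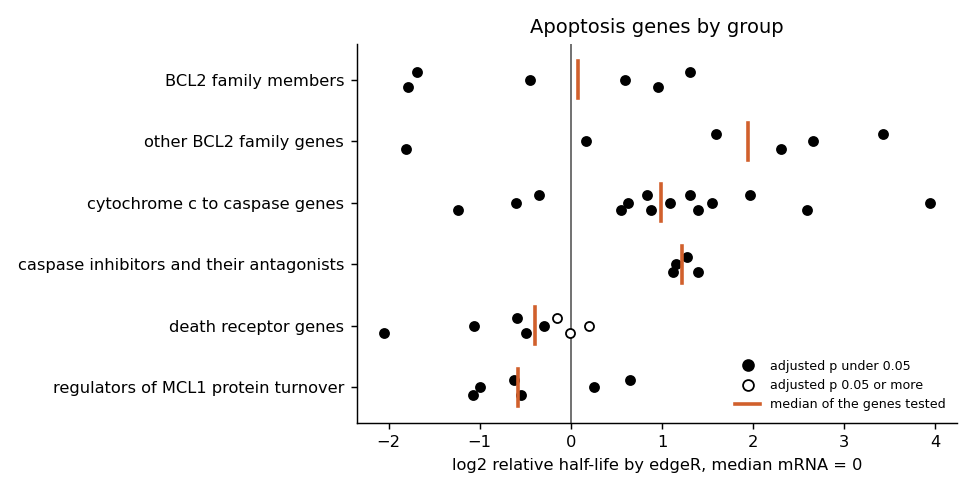
Each point is 1 gene past both thresholds, placed by its log2 relative half-life with the median mRNA at 0, for the 6 BCL2 family members tested and 5 groups of apoptosis genes. Filled points have an edgeR adjusted p under 0.05 and orange bars mark group medians, from -0.59 for regulators of MCL1 turnover to 1.94 for other BCL2 family genes.

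For each member the gene most like it over the 6 libraries was found by Euclidean distance in log2 TPM among 11510 protein-coding genes with a count in every library. BAD had the closest neighbour, FN3KRP at 0.0812, followed by BAX with COTL1 at 0.138, BBC3 with NCBP3 at 0.148, PMAIP1 with MED27 at 0.187 and BCL2L1 with PIM2 at 0.191. MCL1 and BCL2 had the most distant ones, RPL37 at 0.478 and MARCHF1 at 0.605. RPL37, a ribosomal protein gene, had an RNA level of 332 TPM and a nascent level of 1927 TPM.

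The libraries held 5732780 to 9002746 RNA-seq counts and 6993816 and 7245632 PRO-seq counts on TUs. All 9 erythroid markers had RNA-seq counts and together held 11846 to 12750 TPM. The 3 matched B cell markers summed to at most 0.763 TPM. The 4 T cell markers summed to 110 to 116 TPM, of which CD3D alone had 109 TPM while CD2 had 0.0470 TPM and CD3E 0.324 TPM. The 3 matched monocyte markers summed to 331 to 343 TPM, of which LYZ had 334 TPM while CSF1R and FCGR3A had 0.0553 and 0.102 TPM.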

How the data were processed

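K562 cells were profiled by RNA-seq of total RNA in 4 libraries and by PRO-seq in 2. The authors deposited raw counts per transcript for each library, made with Cutadapt, HISAT2 on GRCh38 and HTSeq on GENCODE, with 500 bp omitted at both TU ends in PRO-seq. No source used here gives tool versions or the strand setting. Transcripts were joined by identifier to GENCODE on GRCh37, which supplied lengths, coordinates and sequences (88.1% of 42371 matched), so lengths can differ from those counted on. HTSeq rows that name no TU held 66.5% to 68.6% of RNA-seq and 86.5% or 88.6% of PRO-seq records and were left out.

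TPM used exon length for RNA-seq and span minus 1000 bp for PRO-seq. TUs of the classes mRNA, lincRNA, antisense and pseudogene with over 10 TPM (PRO-seq) and over 1 TPM (RNA-seq) from summed counts entered edgeR's quasi-likelihood test (edgeR 4.0.16, R 4.3.3) with TMM normalization, length offsets, the median mRNA at 0 and Benjamini-Hochberg adjustment over all 9925 TUs, called at 0.05. DESeq2 1.42.0 was an alternative. Other steps used Python 3.11.15 with scipy 1.17.1. The test was checked on simulated data. Other thresholds, lengths, scalings and left-out libraries were tried. SEs leave out the spread between cultures, and PCR copies could not be told from separate molecules.

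The members and gene lists were chosen with earlier results of these data known. Named were all members, up to 3 genes highest and 3 lowest in each pathway list among those called, and each member's nearest gene. CASP10, RIPK1, TRADD, BCL2L2, BIK, BCL2L14, BCL2L10, DIABLO and genes overlapping a counted transcript were named after their values were seen. Values for human sequences come from the annotation, not from reads.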

Additional observations from a re-analysis of the deposited data

How the results depend on the processing

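Of the member calls, those of BAX and BBC3 held under all 17 alternatives tried. MCL1 kept its call and direction in all but the counts without TU length, where its log2 relative half-life was 1.20, and BCL2L1 reversed to 0.18 without thresholds. With a difference over 2-fold tested, BCL2L1, BAD and PMAIP1 were no longer called, the members called above numbered 1, all TUs called were 2138 above and 2898 below, and pathway genes 14 and 3. A 2-fold test asks for more than any difference, so fewer calls follow by construction. Without thresholds more TUs are tested, and 6542 were called above and 7714 below. The median log2 relative half-life of the 7 members, -0.45 from summed counts, was -0.16 with a pseudocount of 1 TPM and 0.0726 over the members past the thresholds alone, since that leaves out BCL2. With each library left out in turn it ranged from -0.46 to -0.43. Subtracting 500 bp instead of 1000 bp from the PRO-seq length put the MCL1 share of family PRO-seq TPM at 74.6%, against 76.1%. It raised the PRO-seq TPM of all 7 members, MCL1 to 1741 TPM, and changed no call. The counts were the same in both settings, so only the divisor was varied and the omission of TU ends was not tested. The 4 RNA-seq and 2 PRO-seq libraries share only numbers: the differences of replicates 1 and 2 correlated at -0.0113 over 9837 TUs. With a replicate block, 3 members were above and 3 below, and 3913 and 4857 of all TUs. Summing the close RNA-seq pairs, chosen after seeing the data, gave 3966 and 4920. Depth limits BCL2, with 65 RNA-seq counts in all, and PMAIP1, with 63 PRO-seq counts.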
